A study of Mus musculus with 4 samples.

Results

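The 5 genes of the Nodal signalling pathway described here were followed through ATAC-seq peak lists of 4 mouse cell populations. ATAC-seq uses a transposase to cut and tag DNA where chromatin is accessible. A listed peak marks a stretch that was open in at least some of the cells. The genes were Nodal, Tdgf1, Lefty1, Lefty2 and Foxh1, and every listed peak over or within 50 kb of their gene bodies was taken. Peaks of the 4 lists that overlapped by at least 1 bp were merged into regions, which gave 121 regions at these 5 genes, of 256632 on the autosomes and the X chromosome. The windows held 91 of 133235 intermediate peaks, 82 of 132875 iPSC peaks, 117 of 129533 ESC peaks and 120 of 157212 MEF peaks. Below, a region is called open in a library when that library lists a peak in it, and the absence of a peak is not a measurement of closed chromatin.

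The study followed the conversion of mouse embryonic fibroblasts towards neural stem cells with the reprogramming factors OSKM (Oct4, Sox2, Klf4 and Myc). The intermediate cells came from B6/129 fibroblasts with a Nanog-CreER reporter, a Rosa26-TdTomato allele and a Col1a-OSKM allele. They received doxycycline, which induces the factors, and 4-hydroxytamoxifen, which activates CreER, between day 1 and day 9. The medium held 0.5 µM of a JAK1 inhibitor. The cells were sorted for tdTomato, which marks cells in which the Nanog-driven CreER had been active. The library title places these cells at day 9 and its source name at day 6, so they are called the intermediate. The induced pluripotent stem cells (iPSC) and the fibroblasts (MEF) both carried the strain label A12 with an Mbd3 flox/- genotype, and the embryonic stem cells (ESC) were the line v6.5. The intermediate is labelled as free of MEF feeders, and the labels do not say which medium the iPSC and ESC were kept in. Each population is 1 library, so no difference below has a replicate check or a p-value, and genotype cannot be told apart from cell state between the intermediate or ESC and the MEF.

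Nodal is a secreted ligand of the TGF-beta family that signals through activin receptors and Smad2 and Smad3, and it needs the co-receptor Cripto, the product of Tdgf1. The phosphorylated Smads join Foxh1, a forkhead transcription factor, on DNA, and Nodal, Lefty1 and Lefty2 are themselves among the target genes, the Lefty proteins being secreted inhibitors that close the loop. The pathway patterns the early embryo, and its ligand, co-receptor and inhibitors are transcribed in pluripotent cells.

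At Tdgf1 the MEF library stood apart from the other 3. The start of the gene carried listed peaks in the intermediate, iPSC and ESC and none in MEF, where 2 of the 20 regions of its window were open, neither of them over the gene. At Nodal the stretch over and before the start was open in the intermediate and ESC, in iPSC only farther than 1 kb from the start, and not in MEF. Around the Lefty genes the MEF list was the longest, with 34 of 48 regions open, and Foxh1 carried a tall peak at 1 end in all 4 libraries. Peak heights given below are the whole numbers of the deposited lists, which carry no scaling between libraries, so each is read with the percentage of its own list that is lower. In bulk material, a site open in fewer of the cells and a site less open in each cell cannot be told apart.

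**Figure D1:**
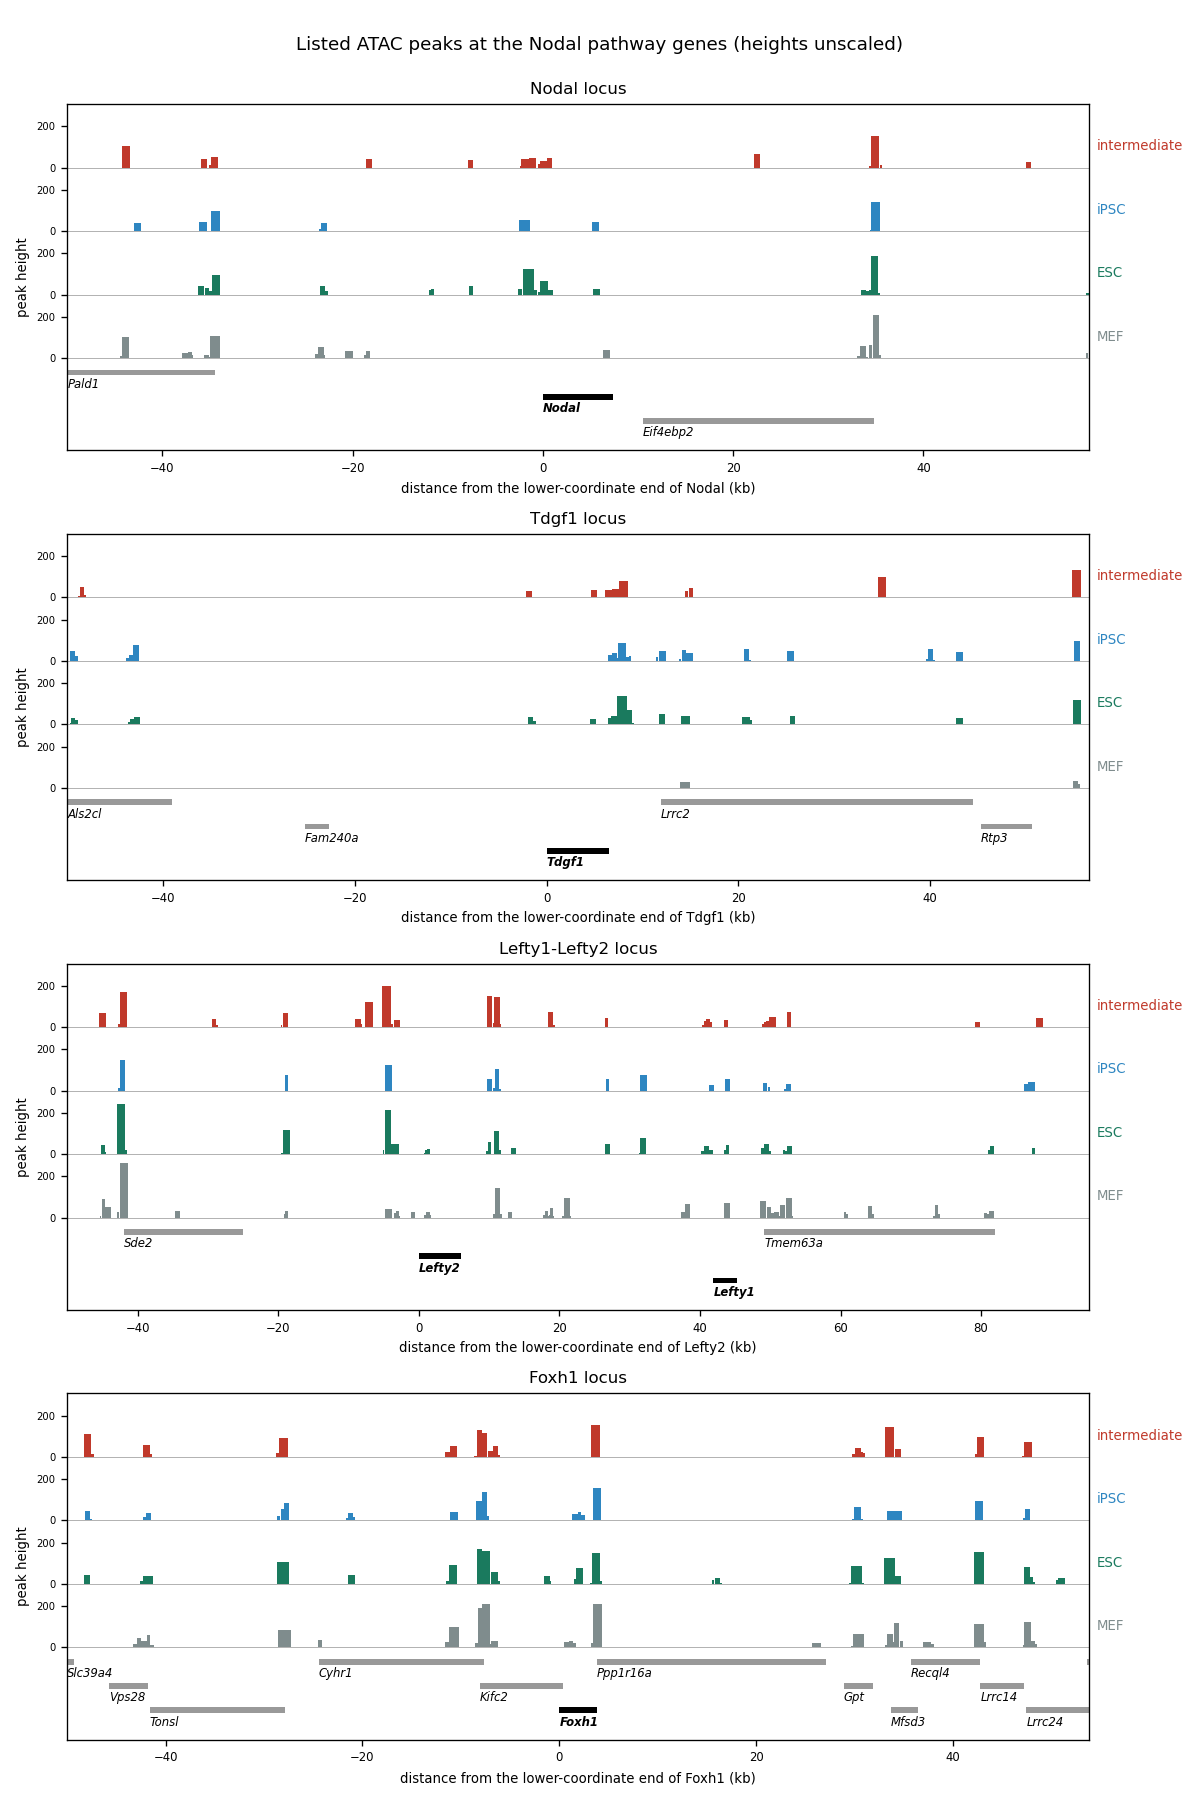
Listed ATAC peaks over the gene bodies and 50 kb on each side at the Nodal, Tdgf1, Lefty1-Lefty2 and Foxh1 loci, plotted by distance in kb from the lower-coordinate end of the named gene, with unscaled peak height on the vertical axis and rows for intermediate, iPSC, ESC and MEF. Black bars are the 5 genes and grey bars protein-coding neighbours outside the stretch between the Lefty genes; the MEF row of the Tdgf1 locus holds 2 open regions, and that of the Lefty1-Lefty2 locus holds 34.

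RefSeq promoter sequence was at hand for Nodal and Tdgf1 (GRCm38.p6, the 250 bases before the annotated start). They are printed because at both genes intermediate and ESC peaks lie over them and no MEF peak does. The tallest peaks near the starts of both genes, described below, lie outside the printed bases. The Tdgf1 promoter is chr9:110946159-110946408 on the minus strand. Capitals mark matches to 3 letter patterns: a FOXH1 pattern TGTNNATT, read on the other strand as AATTTACA; the short Smad pattern CAGAC; and a KLF pattern CCNCNCCC, read on the other strand as GGGCGTGG or directly as CCCCGCCC. The Nodal promoter is chr10:61417722-61417971 on the plus strand, and it has no capitals because none of the searched patterns occurs in it.
Tdgf1: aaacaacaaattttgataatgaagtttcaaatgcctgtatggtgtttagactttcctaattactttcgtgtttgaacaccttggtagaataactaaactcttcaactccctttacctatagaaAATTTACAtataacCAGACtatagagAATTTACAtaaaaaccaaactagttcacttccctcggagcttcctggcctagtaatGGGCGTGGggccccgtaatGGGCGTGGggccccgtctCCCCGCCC
Nodal: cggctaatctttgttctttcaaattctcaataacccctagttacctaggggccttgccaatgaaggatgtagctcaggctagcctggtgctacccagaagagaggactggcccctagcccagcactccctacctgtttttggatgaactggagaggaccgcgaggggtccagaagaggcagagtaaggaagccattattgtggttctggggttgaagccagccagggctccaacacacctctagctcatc

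In the Tdgf1 promoter the FOXH1 pattern occurs at -127 to -120 and at -101 to -94, counted from -1 at the last base before the start, and CAGAC lies between them at -113 to -109. At least 1 match to TGTNNATT is present in 9.66% of the 17274 protein-coding promoters of the same length, and at least 2 in 0.915%. The KLF pattern occurs at -45 to -38, -26 to -19 and -8 to -1, and CCNCNCCC is common, with at least 1 match in 52.7% of promoters and at least 2 in 32.2%. CAGAC is likewise common, at 40.7%. The other patterns searched on both strands were the Smad sequences GTCTAGAC and GGCGCC, the octamer ATGCAAAT, the SOX core CATTGT and the TCF sequence CTTTGAT, found in 0.185%, 12.3%, 1.63%, 9.06% and 2.91% of promoters in that order. A match is a run of letters and not a bound site, and the absence of one says only that these letters are not in this window.

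Both promoters were covered by peaks in some libraries and free of them in MEF. Of the 250 bases of the Tdgf1 promoter, intermediate peaks covered 250, iPSC peaks 250, ESC peaks 241 and MEF peaks 0. The tallest peak over those bases had a height of 34 for the intermediate, 27 for iPSC and 39 for ESC. Of the 250 bases of the Nodal promoter, intermediate peaks covered 250, iPSC peaks 0, ESC peaks 250 and MEF peaks 0, with tallest heights of 30 for the intermediate and 65 for ESC. In windows of 300 bases, which add the first 50 bases of the gene, 57.8% of the 17274 promoters of that table had a peak in the intermediate, 61.2% in iPSC, 63.2% in ESC and 59.5% in MEF. The GC content was 42% for Tdgf1 and 53.2% for Nodal, against a median of 55.6% over all these promoters.

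Nodal, the ligand (gene ID 18119, chr10:61417972-61425338, GRCm38), had its open regions around the start in a row. The broadest lay 0.622 kb before the start at chr10:61415401-61417350 and had heights of 49 for the intermediate, 54 for iPSC and 122 for ESC, with no peak in MEF. These heights exceed 68.5%, 66.0% and 93.7% of the peaks in the intermediate, iPSC and ESC lists, so only the ESC peak was tall within its own list. The summits within this region were not at one place, and lay up to 840 bp apart. A short region at chr10:61417421-61417691 followed, with heights of 18 for the intermediate and 15 for ESC and none in iPSC or MEF. The region over the start itself, chr10:61417701-61419040, had heights of 45 for the intermediate and 65 for ESC, above 64.5% and 81.7% of their lists, and again no peak in iPSC or MEF. A further region, 7.31 kb before the start at chr10:61410071-61410660, had the same pattern with heights of 36 for the intermediate and 42 for ESC.

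Within 1 kb of the Nodal start the intermediate listed 5 peaks and ESC 6, whereas the nearest peak was 1.37 kb away in iPSC and 6.29 kb away in MEF. The gene body also held a region towards its far end, chr10:61423161-61423990, with heights of 45 in iPSC and 27 in ESC that the intermediate and MEF lacked. MEF had a peak of its own near the far end, with a height of 39 at chr10:61424261-61425060, in which no other library listed a peak. A peak within 1 kb of either gene end was therefore present in the intermediate, ESC and MEF, but at opposite ends of the gene in the intermediate and in MEF. Peaks covered 12.8% of the Nodal body in the intermediate, 8.96% in iPSC, 25.1% in ESC and 10.9% in MEF.

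Farther from Nodal, the window held tall peaks at the ends of its neighbours. The region at the end of Eif4ebp2, chr10:61451301-61453610, had heights of 153 for the intermediate, 142 for iPSC, 187 for ESC and 211 for MEF, and the region at the end of Pald1, chr10:61381761-61384080, had heights of 51, 96, 93 and 105 in that order. These were open in all 4 libraries. Inside Pald1, chr10:61373531-61374570 was open in the intermediate and MEF alone, with a height of 104 in both and summits 5 bp apart. Another region shared by these 2 libraries alone, chr10:61399181-61399990, had heights of 43 for the intermediate and 36 for MEF. One region inside Eif4ebp2, chr10:61440141-61440830, was open in the intermediate alone with a height of 65. Of the 23 regions of the Nodal window, 10 were open in the intermediate, 6 in iPSC, 11 in ESC and 13 in MEF.

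Tdgf1, the co-receptor (gene ID 21667, chr9:110939608-110946158, minus strand), had its main region over the start and the bases before it, chr9:110945751-110948521. Its heights were 80 for the intermediate, 88 for iPSC and 136 for ESC, above 84.7%, 83.8% and 95% of their lists, with no peak in MEF. The 3 summits lay within 80 bp of each other, about at the same place upstream of the start. Restricting to 1 kb of the start, the tallest peak was 43 for the intermediate, 88 for iPSC and 136 for ESC, because the taller intermediate sub-peak lay just beyond that distance. The nearest MEF peak was 7.32 kb from the start.

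The intermediate and ESC shared regions at Tdgf1 that iPSC lacked. Inside the gene, chr9:110944191-110944920 had heights of 38 for the intermediate and 26 for ESC. Past the 3′ end, chr9:110937421-110938201 had heights of 29 for the intermediate and 35 for ESC. Peaks covered 16.6% of the gene body in the intermediate, 2.11% in iPSC, 11.6% in ESC and 0% in MEF.

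Upstream of Tdgf1, in and around Lrrc2, iPSC and ESC shared regions that the intermediate lacked. The end of Lrrc2 nearer to Tdgf1 had a height of 48 in iPSC and in ESC, and 3 further regions lay 13.9 kb, 18.5 kb and 36.1 kb from Tdgf1. Their heights were 57 and 36, 50 and 42, and 41 and 30 in iPSC and ESC, with no peak in the intermediate or MEF. On the other side, in Als2cl, chr9:110895731-110897150 had heights of 76 in iPSC and 37 in ESC. A tall peak inside Lrrc2 was the intermediate's own, at chr9:110974141-110974970 with a height of 99, above 89.3% of its list. The region at chr9:110994391-110995340, near the edge of the window, was open in all 4 libraries with heights of 131 for the intermediate, 97 for iPSC, 116 for ESC and 35 for MEF. With chr9:110953411-110954940, where heights were 48, 53, 39 and 28 in that order, it made up the whole MEF list of this window.

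The Tdgf1 window was short of MEF peaks next to the windows of other genes. MEF had 2 open regions in it, fewer than in the windows of most protein-coding genes (15.7% had a lower count, and the median was 9). Of its 20 regions 7 were open in iPSC and ESC and not in MEF, a count higher than that of 96.7% of protein-coding genes, with a median of 1. No region of this window was open in MEF and not in the intermediate. Most of the 7 were nearest to Als2cl or Lrrc2 and not to Tdgf1. These ranks describe the window and carry no test.

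**Figure D2:**
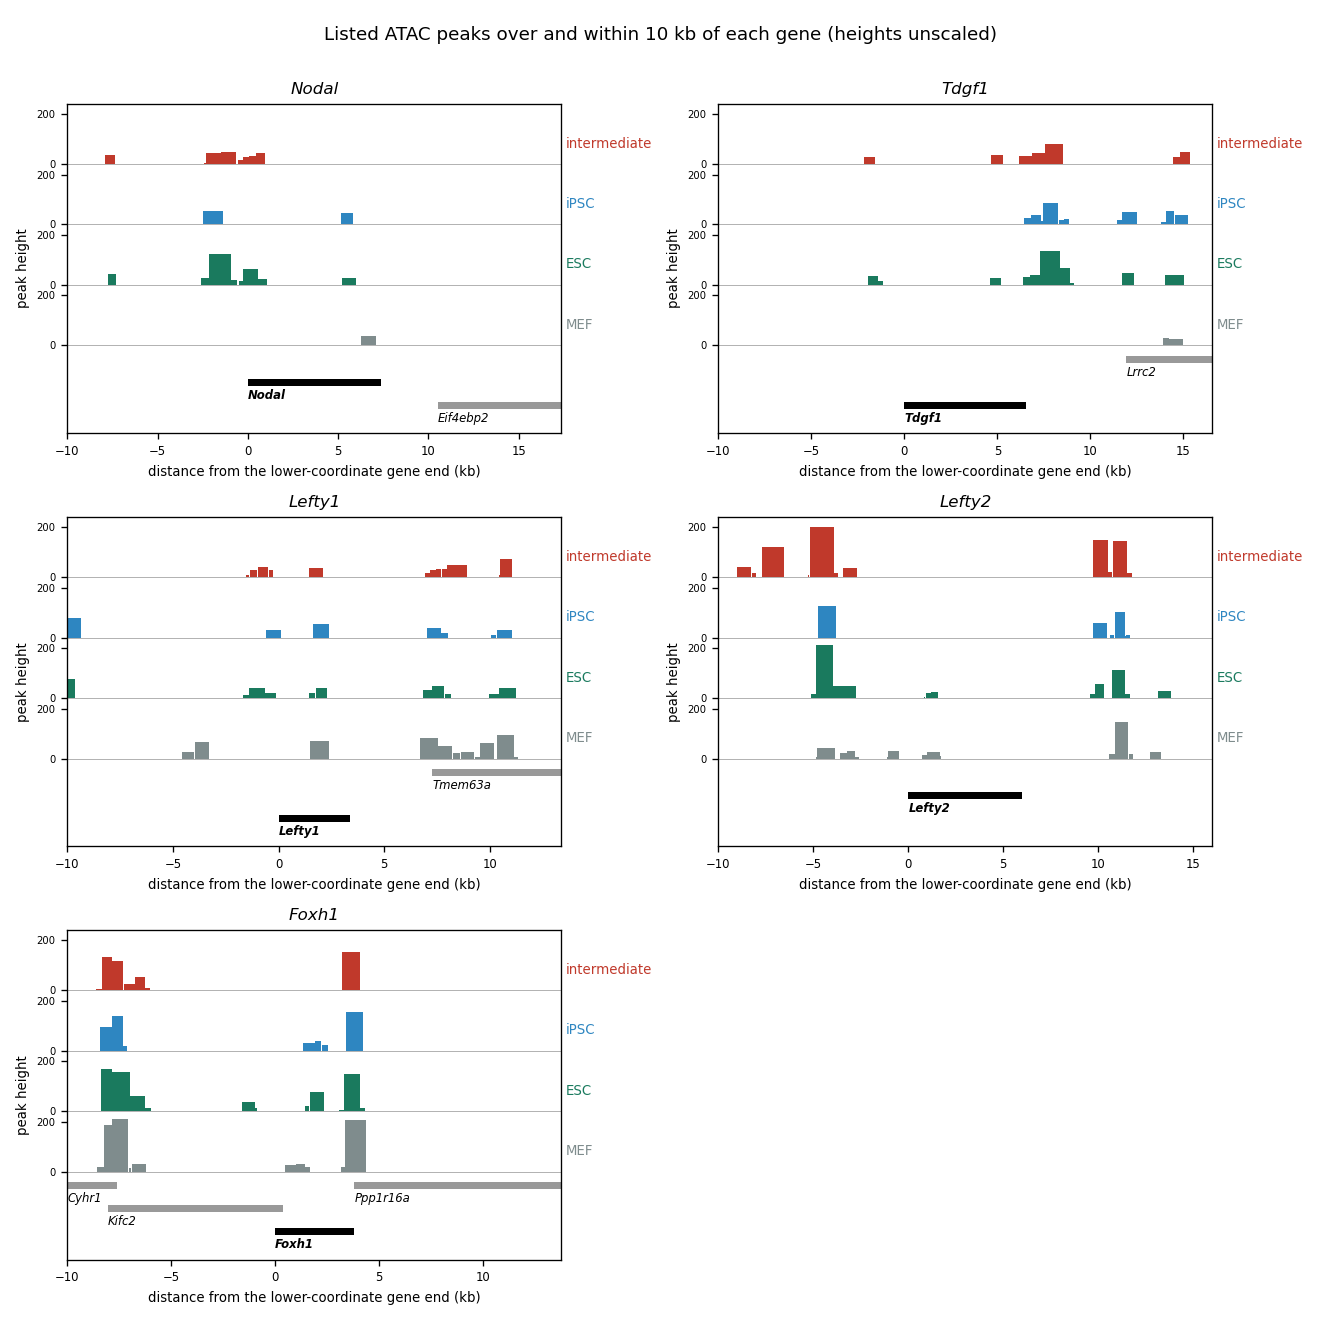
Listed ATAC peaks over and within 10 kb of each of the 5 genes, by distance in kb from the lower-coordinate gene end, with unscaled peak height on the vertical axis and rows for intermediate, iPSC, ESC and MEF. At Tdgf1 the intermediate, iPSC and ESC rows have peaks of 34, 27 and 33 over the right-hand end (its start). Their taller peaks of 80, 88 and 136 lie beyond that end, and the MEF row has no peak at these positions. At Foxh1 all rows have a peak at the right-hand end.

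Lefty1 and Lefty2, which encode the secreted inhibitors, lie 35.9 kb apart on chromosome 1, so their windows overlap and the shared regions were counted once. Lefty1 (gene ID 13590) is at chr1:180935022-180938401 and Lefty2 (gene ID 320202) at chr1:180893108-180899107, and both are transcribed towards higher coordinates. A region of tall peaks lay 2.62 kb before Lefty2, at chr1:180887911-180890490. Heights there were 202 in the intermediate, 125 in iPSC, 213 in ESC and 41 in MEF, which exceed 97.8%, 90.8%, 98.6% and 67.1% of their lists. All 4 libraries had a peak in it and their summits fell within 40 bp, while the MEF peak ranked lowest of the 4 within its own list. Beside it, the intermediate had a region of its own at chr1:180885401-180886550, 6.56 kb before Lefty2, with a height of 122, above 92.8% of its list. A further 3 smaller intermediate-only regions with heights of 42, 17 and 8 flanked it.

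The Lefty2 gene itself carried low peaks at most. In the intermediate and iPSC no peak lay within 1 kb of either end, and the nearest were 2.71 kb and 3.78 kb from the lower-coordinate end. ESC had a tallest height of 21 and MEF of 29 within 1 kb of that end. The region inside the gene, chr1:180893831-180894771, had heights of 24 in ESC and 26 in MEF, and peaks covered 0% of the body in the intermediate, 0% in iPSC, 12.0% in ESC and 16.7% in MEF. When each list was limited to peaks above its median height, Lefty2 had no end peak in any library.

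At the lower-coordinate end of Lefty1, where transcription starts, chr1:180933331-180935150 had heights of 39 for the intermediate, 29 for iPSC and 41 for ESC, and no peak in MEF, whose nearest was 1.49 kb away inside the gene. That MEF peak belonged to chr1:180936471-180937430, open in all 4 libraries with heights of 36 for the intermediate, 56 for iPSC, 42 for ESC and 71 for MEF. The 3 libraries other than MEF thus had peaks at or just before the start as well as in the body, and MEF in the body alone. Before the start, chr1:180924381-180925650, at 9.37 kb, was open in iPSC and ESC with heights of 77 and 76 and in neither the intermediate nor MEF. Farther out, at 14.6 kb, chr1:180919581-180920380 was open in the intermediate, iPSC and ESC with heights of 44, 55 and 47. MEF had its own regions between the 2 Lefty genes, among them chr1:180913731-180914601 with a height of 93 and chr1:180931051-180931730 with a height of 67.

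At the end of Sde2 the heights were 170 in the intermediate, 151 in iPSC, 245 in ESC and 266 in MEF, the tallest of the window in iPSC, ESC and MEF. Another region open in all 4 libraries, chr1:180873571-180874760 at 18.3 kb before Lefty2, had heights of 71 for the intermediate, 75 for iPSC, 119 for ESC and 33 for MEF. Past Lefty1, a region at 6.14 kb had heights of 75, 31, 39 and 96 in the same order.

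Across the 48 regions of the joint Lefty window, 20 were open in the intermediate, 13 in iPSC, 16 in ESC and 34 in MEF. Of the 34, 22 were open in MEF alone, 64.7% against 70.9% of MEF regions in the genome. Many regions of this window are short pieces side by side. With peaks at most 10 bp apart joined, 15 of 29 regions were open in the intermediate and 20 in MEF. Those with a peak in MEF but in neither iPSC nor ESC then numbered 10, against 23 unjoined. For Lefty1 the number open in MEF was 30, and 94.5% of protein-coding genes had fewer, with a median of 9. For Lefty2 the number open in the intermediate was 18, and 88.7% of genes had fewer, with a median of 7. Of the 48 regions, 8 were open in the intermediate alone, 40% of its open regions here against 52% in the genome. With peaks at most 10 bp apart joined, the intermediate alone had 5 of 29.

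Foxh1, the transcription factor (gene ID 14106, chr15:76667829-76671614), is transcribed towards lower coordinates and begins 29 bp from Ppp1r16a, so a peak over that end cannot be assigned to either gene. That region, chr15:76670921-76672210, had heights of 154 for the intermediate, 157 for iPSC, 148 for ESC and 208 for MEF. They exceed 95.6%, 93.8%, 95.9% and 98.3% of their lists, and the summits lay within 140 bp of each other. Inside the gene the libraries differed: chr15:76668841-76670400 had heights of 39 in iPSC, 77 in ESC and 30 in MEF, with no peak in the intermediate. Peaks covered 14.6% of the Foxh1 body in the intermediate, 41.9% in iPSC, 42.4% in ESC and 47.2% in MEF. Near the lower-coordinate end MEF had a peak of height 28 inside the gene, and ESC had peaks of 36 and 12 just outside it.

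The Foxh1 window is dense in genes, with 12 protein-coding neighbours, and its tallest peaks lay at their ends. At the facing ends of Cyhr1 and Kifc2 the heights were 133 in the intermediate, 139 in iPSC, 170 in ESC and 212 in MEF. The Mfsd3 region had heights of 143, 45, 124 and 116 in the same order, and the region between Recql4 and Lrrc14 had 99, 94, 155 and 114. Between Lrrc14 and Lrrc24, chr15:76714841-76716200 had 72, 57, 83 and 125, the third tallest MEF height of the window. A single region of the 30 was open in the intermediate and not in MEF. It lay 47.3 kb from Foxh1 near Slc39a4, at chr15:76619511-76620510, with heights of 113 for the intermediate, 45 for iPSC and 42 for ESC. The window had 20 open regions in ESC, and 97.1% of protein-coding genes had fewer. Of the 20, 8 were open in ESC alone, 40% against 26.1% of ESC regions in the genome. Most of the 8 are short pieces side by side. With peaks at most 10 bp apart joined, 15 of 18 regions were open in ESC. The rank and both shares are for unjoined peaks.

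**Figure D3:**
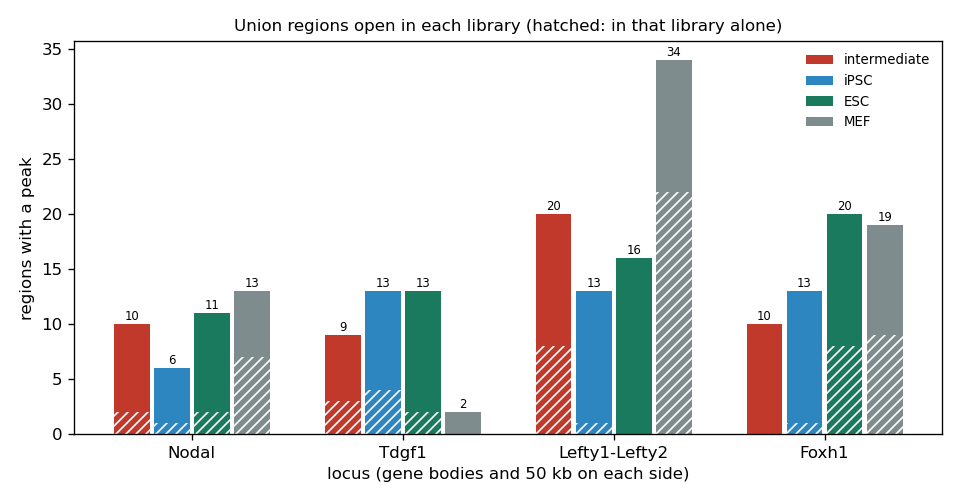
Number of regions with a listed peak at each locus (gene bodies and 50 kb on each side) in the intermediate, iPSC, ESC and MEF, with hatching for regions open in that library alone. MEF has 2 open regions at Tdgf1 and 34 at Lefty1-Lefty2. Of the 34, 22 are in MEF alone, 64.7% against 70.9% of MEF regions in the genome. The intermediate has none of its own at Foxh1.

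The intermediate was compared with MEF, which carry another strain label and so are not its own starting cells. Of the 121 regions, 25 had a peak in the intermediate and none in MEF, 20.7% against 25.1% of all regions. They were 6 at Nodal, 7 at Tdgf1, 11 at the Lefty genes and 1 at Foxh1. A peak in MEF and none in the intermediate was found in 44, 36.4% against 35.8% of all regions, with 9 at Nodal, 0 at Tdgf1, 25 at the Lefty genes and 10 at Foxh1. Both shares were near the background, so these counts are not a result about the 5 genes together, and they were spread unevenly over the loci. The larger count on the MEF side depended on the definition: with peaks above each list's median height it turned round, at 18 intermediate regions against 14 MEF regions, and over regions whose nearest protein-coding gene is a member at 12 against 9. With peaks at most 10 bp apart joined, the MEF side was larger by less, at 18 against 21. MEF has the longest list, and with the lists trimmed to equal length the counts were 25 and 36.

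Of the 25 regions gained by the intermediate, 12 were open in iPSC or ESC as well. They included the starts of Nodal, Tdgf1 and Lefty1. The other 13 were open in the intermediate alone, led by the regions in Lrrc2 (99), before Lefty2 (122) and in Eif4ebp2 (65). Regions in no other library made up 26.5% of the intermediate's open regions at these loci, against 52% of its open regions in the genome. Some of the 13 are short pieces beside other peaks. With peaks at most 10 bp apart joined, 8 of its 41 open regions were in no other library. Both shares are for unjoined peaks. More of the 121 regions lie within 1 kb of a gene end, 30.6% against 10.3% of all regions. Whether the lower share goes with that was not tested.

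The pluripotent libraries were compared with MEF next. A peak in iPSC and none in MEF was found in 23 regions, 19% against 26.4% of all regions, and 11 of them were at Tdgf1. A peak in MEF and none in iPSC was found in 46, 38.0% against 35.8%, of which 27 were at the Lefty genes. For ESC, 33 regions had a peak there and none in MEF, 27.3% against 20.9% of all regions, with 11 at Tdgf1 and 10 at Foxh1. The reverse held for 41, 33.9% against 35.4%. Of the 10 at Foxh1, 8 were open in ESC alone, most of them short pieces side by side. With peaks at most 10 bp apart joined, 15 of 18 Foxh1 regions were open in ESC. No joined count is given for the comparison of ESC with MEF.

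Regions with a peak in both iPSC and ESC and none in MEF numbered 16, 13.2% against 11.2% of all regions. The Tdgf1 window held 7 of them, the Lefty window 5, the Nodal window 2 and the Foxh1 window 2. Most of those in the Tdgf1 window were nearest to Als2cl or Lrrc2 and not to Tdgf1. Of the 16, 7 were also open in the intermediate, 43.8% (Wilson 95% interval 23.1 to 66.8%), and 35.8% of such regions in the genome were. The interval covers counting error over regions only, and it contains the genome's share. The 7 regions included the Nodal region before the start, the Tdgf1 start, the Lefty1 start, the region 14.6 kb before it and the region near Slc39a4. Another was a region 48.6 kb from Tdgf1 in Als2cl with an intermediate height of 6. The intermediate peak of 51 directly beside that region was counted separately, as open in the intermediate alone. The ESC heights of the 7 had a median of 47 with a range of 30 to 136, and those of the 9 not open in the intermediate a median of 37 with a range of 27 to 76. In iPSC the medians were 54 and 48. The heights of the 2 sets overlap in both libraries.

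Where only MEF among iPSC, ESC and MEF had a peak, 3 of 41 regions were open in the intermediate, 7.32% (2.52 to 19.4%), against 5.11% in the genome. Away from gene ends by more than 1 kb the count was 3 of 33, 9.09% (3.14 to 23.6%), against 4.96% in the genome. The 3 regions were the one in Pald1 with a height of 104, chr10:61399181-61399990 before Nodal, and chr1:180911091-180912490 between the Lefty genes, where the height was 74 in the intermediate and 45 in MEF. None of the 3 lay at a member's start.

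Most iPSC regions at these genes were also open in ESC. Of the 45 regions open in iPSC, 38 were open in ESC, 84.4% (71.2 to 92.3%), against 54.5% of iPSC regions in the genome. By locus the counts were 5 of 6 at Nodal, 9 of 13 at Tdgf1, 12 of 13 at the Lefty genes and 12 of 13 at Foxh1. The iPSC regions at Tdgf1 without an ESC peak were pieces lying close together or beside a region open in both. With peaks at most 10 bp apart joined, 36 of 39 iPSC regions at these genes were open in ESC, against 62.5% in the genome. The members' regions lie near gene ends more often than other regions do, 30.6% within 1 kb of one against 10.3%. Among those farther than 1 kb, 18 of 24 iPSC regions were open in ESC, 75.0% (55.1 to 88.0%), against 48.0% in the genome. In the other direction, 22 ESC regions had no iPSC peak, 18.2% of the 121 against 11.4% of all regions, and 7 iPSC regions had no ESC peak, 5.79% against 16.5%. The start of Nodal was among the 22, and so were the 8 ESC-only regions at Foxh1, most of them short pieces side by side.

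The intermediate shared regions with each pluripotent library and lacked others. Against iPSC it had 22 regions of its own, 18.2% against 22.3% of all regions, and lacked 18, 14.9% against 23.5%. Against ESC it had 16 of its own, 13.2% against 21.6%, and lacked 27, 22.3% against 17.8%. Of the 27, 7 were at Tdgf1 and 10 at Foxh1, of which 8 were the ESC-only pieces. All 4 libraries had a peak in 20 regions, 16.5% against 7.03% of all regions, and 14 of these 20 lay within 1 kb of a gene end. Their summits differed by a median of 80 bp between libraries.

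Counting end peaks alone, the members with a peak within 1 kb of either gene end were 4 of 5 in the intermediate, 3 in iPSC, 5 in ESC and 4 in MEF. Over all 21631 protein-coding genes the shares were 62.3%, 65.3%, 67.2% and 64.3% in that order. Tdgf1 was the member with an end peak in the intermediate and none in MEF, a pattern shared by 5.64% of genes. Lefty2 had the reverse, as did 7.64% of genes. Set against MEF in the same way, Tdgf1 was also the member with an end peak in iPSC and none in MEF (7.32% of genes), and with one in ESC and none in MEF (7.36%). The count for iPSC depends on distance, since its Nodal peak lay 1.37 kb from the start and is included when 2.5 kb is allowed.

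The rest of the Nodal and activin pathway, a list of 31 genes, had end peaks in 24 genes in the intermediate, 28 in iPSC, 28 in ESC and 21 in MEF. These are 77.4%, 90.3%, 90.3% and 67.7% of the list. Over all protein-coding genes the shares were 62.3%, 65.3%, 67.2% and 64.3%, so the MEF count was near the background. The median tallest height, with genes lacking an end peak set to 0, was 64 for the intermediate, 68 for iPSC, 67 for ESC and 50 for MEF, beside 50, 59, 63 and 52 over all protein-coding genes. Of the 31 genes, 4 had an end peak in the intermediate and none in MEF, a pattern of 5.64% of all protein-coding genes. Cfc1, a second co-receptor of the Cripto family, had tallest heights of 64 for the intermediate, 152 for iPSC and 47 for ESC. Acvr1c, a type I receptor (Alk7), had 39, 178 and 137 in the same order. Gdf3, a related ligand that lies near Nanog, had 57, 36 and 32. Foxa2, an endoderm transcription factor and pathway target, had 34, 203 and 52. Furin, a convertase that can cleave the Nodal precursor, was the gene with the reverse pattern, with a height of 52 in MEF and no end peak in the other 3 libraries. A RefSeq promoter window was at hand for 21 of the 31 genes, and these windows did not follow the end peaks in every case. All 300 bases of the Acvr1c window were covered in the intermediate, iPSC and ESC and 0 in MEF, and the Foxa2 window had 161, 211, 101 and 0 bases covered in the order intermediate, iPSC, ESC and MEF. The Cfc1 and Furin windows had 0 bases covered in all 4 libraries, so their end peaks lie elsewhere within 1 kb of a gene end.

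The other receptors and the Smads had end peaks throughout. Acvr1b, Acvr2a and Acvr2b, and likewise Smad2, Smad3, Smad4 and Smad7, had them in all 4 libraries, as did 20 of the 31 genes in all, beside 53.8% of all protein-coding genes. Smad2, a receptor-activated Smad, had heights of 157 for the intermediate, 193 for iPSC, 166 for ESC and 282 for MEF. The target genes varied more. Sox17, T and Lhx1, transcription factors of endoderm and mesoderm, had end peaks in iPSC and ESC but in neither the intermediate nor MEF, with iPSC and ESC heights of 283 and 55 for Sox17, 58 and 33 for T, and 60 and 39 for Lhx1. Mixl1 had one in ESC alone (51) and the extracellular inhibitor Cer1 in iPSC alone (51). Inhba, an activin subunit, had no end peak in any library, but its RefSeq promoter lies 7.60 kb inside the gene span used, and there 250, 300, 291 and 170 bases were covered in the intermediate, iPSC, ESC and MEF.

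**Figure D4:**
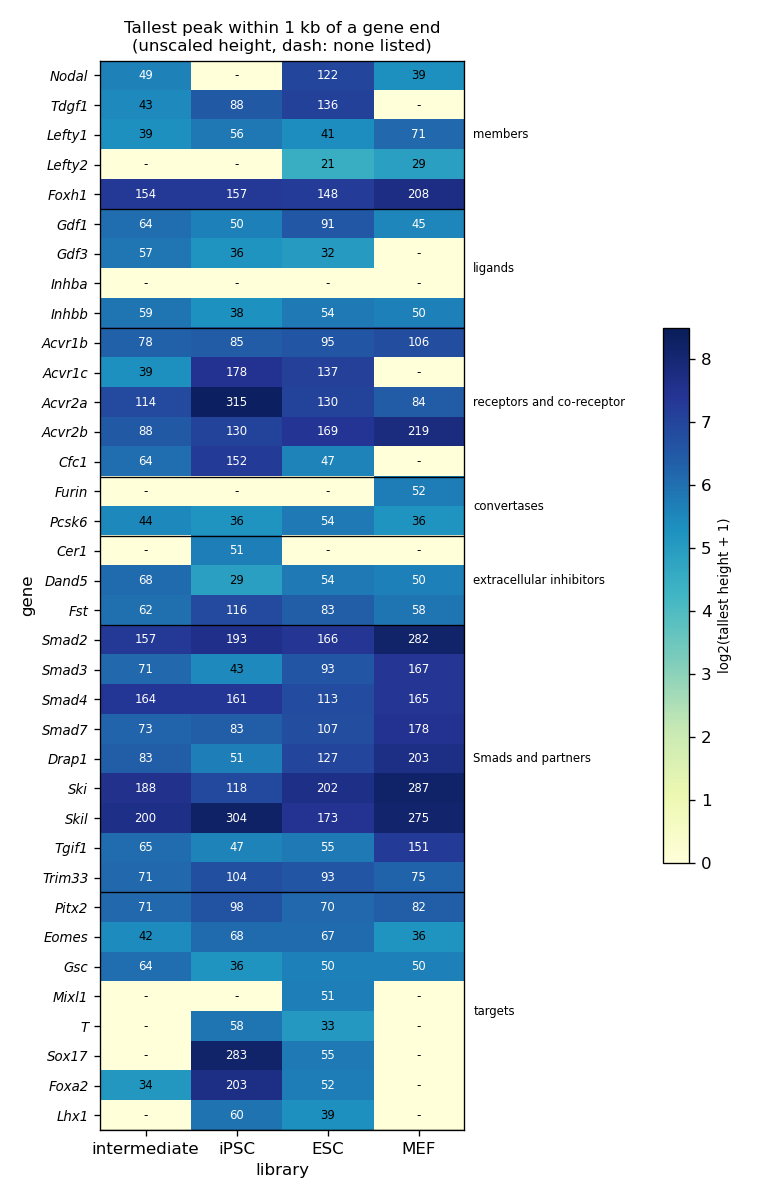
Tallest listed peak within 1 kb of either gene end for the 5 members and the 31 other pathway genes, in rows by role, and intermediate, iPSC, ESC and MEF in columns; numbers are unscaled heights, a dash is no listed peak, and colour is log2(height + 1). Tdgf1, Cfc1, Acvr1c, Gdf3 and Foxa2 have heights of 34 to 64 in the intermediate and a dash in MEF, and Smad2, Smad3, Smad4 and Smad7 have a height in every column.

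The genes whose tallest peaks over the body and 1 kb on each side were most like a member's were found by Euclidean distance of log2(height + 1) over the 4 libraries, as a description. Nearest to Nodal (49 in the intermediate, 45 in iPSC, 122 in ESC, 39 in MEF) were Nxph3, Klhl12 and Egfl7, at distances of 0.29, 0.32 and 0.32. Nearest to Tdgf1 (43, 88, 136 and no peak) were Olig2, Gm9631 and Slc5a8, at 0.20, 0.26 and 0.29. Lefty1 was nearest to Parp10, Fxyd2 and Osmr, at 0.20, 0.23 and 0.25. For Lefty2, with peaks in ESC and MEF alone, they were Ctcfl and Gsdmd at 0.09 and Lactbl1 at 0.16. Foxh1 was at 0 from Ppp1r16a, with which it shares its end peak, and at 0.09 from Mroh8 and Rpn2, which share a peak with each other.

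The single peaks in the members' windows had median heights of 36 for the intermediate, 37.5 for iPSC, 27 for ESC and 26 for MEF, against 34, 39, 32 and 30 over the whole lists. End peaks were found in 3, 3, 5 and 8 of 8 fibroblast markers in the intermediate, iPSC, ESC and MEF, and in 5, 8, 6 and 0 of 8 pluripotency markers. Epithelial markers had them in 4, 4, 4 and 1 of 4, myeloid markers in 2, 2, 2 and 3 of 4 and endothelial markers in 1, 2, 1 and 1 of 4. Over all protein-coding genes the shares were 62.3%, 65.3%, 67.2% and 64.3% in the order intermediate, iPSC, ESC and MEF. MEF thus had end peaks at every fibroblast marker and at no pluripotency marker. The intermediate had them at 62.5% of pluripotency markers, near its share of all genes, and at 37.5% of fibroblast markers, below it. Like the intermediate, iPSC and ESC had them in both sets. Pou5f1, which encodes Oct4, had an end peak in iPSC alone, with a height of 790, and so in neither the intermediate nor ESC. Esrrb had the same pattern, with an iPSC height of 66. Whether a few remaining cells of another type contributed to the intermediate's peaks was not tested.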

How the data were processed

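ATAC-seq was done on 1 library each of intermediate, iPSC, ESC and MEF cells (50000 cells, 30 min of transposition at 37 °C and 12 PCR cycles, in protocol text that describes the sorted intermediate). The authors deposited a peak list per library, with positions, a summit and a whole-number height that is used here as unscaled signal. How that height was computed is not given in the sources used here. Bowtie2, Picard, CASAVA 1.8.2, MACS 1.4.2-1 and the build mm10 appear in the submitters' processing notes with no role. Read depth is unknown, so no floor on detection was set; list lengths and heights stand in its place.

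Peaks on the 19 autosomes and X were merged into regions where they shared at least 1 bp, in Python 3.11.15 with pandas 2.3.3 and numpy 2.4.6, and the merging and counting were tested on simulated peaks. Figures were drawn with matplotlib 3.10.9. Gene positions and the promoters of Nodal and Tdgf1 came from RefSeq (GRCm38.p6). The gene table used has no strand, so both gene ends were taken within 1 kb; the strand of Nodal and Tdgf1 follows the promoter table and that of the other members is background knowledge. With 1 library per group there was no test and no p-value, and shares carry Wilson 95% intervals for counting error only. The members, the pathway list and the markers were chosen with earlier results of these data known. Named were the members with their end regions and the 3 tallest regions per locus and library, pathway genes with an end peak in the intermediate or MEF but not both, nearest neighbours as landmarks, and the 3 most similar genes per member. Other regions and pathway genes were named after their values were seen. A neighbouring gene and its regions are counted but not reported here. Alternatives were joined sub-peaks, height limits, equal list lengths, windows of 20 and 100 kb, nearest gene, a 50% overlap of the shorter peak and an end distance of 2.5 kb.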

Additional observations from a re-analysis of the deposited data

How the results depend on the processing

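Of 72 values recomputed under the alternatives, 55 stayed within 1.5 times the reported count or inside the counting interval and 17 did not. The 25 regions gained by the intermediate over MEF became 15 with windows of 20 kb, 53 with 100 kb, 12 where the nearest protein-coding gene is a member and 39 when single peaks overlapping by 50% were counted. The 44 regions in the other direction became 21 with sub-peaks at most 10 bp apart joined, 14 with peaks above each list's median height, 22 with 20 kb, 88 with 100 kb and 9 by nearest gene. The 16 regions open in iPSC and ESC and not in MEF became 10 with 20 kb, 5 by nearest gene and 31 by single peaks. The share of MEF-only regions open in the intermediate, 7.32%, was 20% with peaks above the median height (3 of 15; 8.32% in the genome) and 0% by nearest gene (0 of 7, an interval up to 35.4%). The share of iPSC regions open in ESC, 84.4%, was 92.3% with joined sub-peaks (62.5% in the genome), 95.5% with 20 kb and 100% by nearest gene (9 of 9). Windows, nearest gene, single peaks and the height limit change how many regions are counted by construction. The 43.8% of pluripotent regions open in the intermediate stayed inside its interval under every alternative run. No paired analysis was possible because each group is 1 library and the labels carry no replicate numbers, and for the same reason no replicate could be left out.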
